A study of Homo sapiens with 4 samples.

Results

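The genes described here are 10 components of the NF-kB pathway: the 5 subunits NFKB1, NFKB2, RELA, RELB and REL, the 3 feedback inhibitors NFKBIA, NFKBIE and TNFAIP3, and the IKK subunits IKBKB and IKBKG. They were found by gene symbol in the platform annotation. Each had exactly 1 probe set, so all 10 were measured, out of 17687 genes with a named probe set among 21448 probe sets.

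The arrays measured total RNA from A549, an established human lung adenocarcinoma line, in 2 groups of 2 arrays. The first group (A549-shLDOC1-H2BK120R) carried a short hairpin RNA against LDOC1 and expressed H2BK120R, a histone H2B with arginine in place of the lysine that accepts monoubiquitin. The second group (A549-shLDOC1-V) carried the same hairpin and an empty vector, and both were grown in medium with serum and puromycin. Hence both groups are labelled as LDOC1-depleted, with no array without the hairpin to measure the depletion against, and the comparison asks which transcripts differ once the submitters' design text has monoubiquitylated H2B (H2Bub1) lowered again. The labels mention no cytokine or other NF-kB stimulus. No array came from cells with an added unmutated H2B, so the mutation and the added histone cannot be told apart. The sources used here do not say whether each subline is 1 clone or a pool, or which promoter drives the H2B construct.

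NF-kB is a family of dimeric transcription factors that inhibitor proteins hold in the cytoplasm. In the canonical branch, receptors for tumour necrosis factor, interleukin 1 or microbial products activate the IKK complex, whose kinase IKBKB and scaffold IKBKG mark the inhibitor for destruction and free dimers of RELA with the product of NFKB1. In the noncanonical branch, NFKB2 is processed and pairs with RELB. The freed dimers switch on their own inhibitors, NFKBIA, NFKBIE and TNFAIP3, and the transcript levels of these genes are therefore widely read as a trace of NF-kB activity. LDOC1 itself has been described as an inhibitor of NF-kB activation in cultured cancer cells. Nuclear entry and protein levels were not measured by these arrays.

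NF-kB acts on its inhibitors through their promoters, and those of NFKBIA and TNFAIP3 are shown for that reason. Both are 300 bases from RefSeq on GRCh38.p14, from 250 bases before the annotated start to 50 after it, read 5′ to 3′ along the gene. Capitals mark matches to the narrower kB consensus, the DNA motif that NF-kB dimers bind, found on either strand. NFKBIA lies at chr14:35404700-35404999 on the minus strand, with 1 match whose first base is at -81 from the start. TNFAIP3 lies at chr6:137867009-137867308 on the plus strand, with 2 matches, at -67 and -55, that do not overlap.
NFKBIA: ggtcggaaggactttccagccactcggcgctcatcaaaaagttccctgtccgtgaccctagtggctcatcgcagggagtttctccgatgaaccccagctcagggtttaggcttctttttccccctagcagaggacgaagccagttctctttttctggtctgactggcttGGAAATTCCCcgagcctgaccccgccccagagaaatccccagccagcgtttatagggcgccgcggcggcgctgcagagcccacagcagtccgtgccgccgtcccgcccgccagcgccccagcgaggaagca
TNFAIP3: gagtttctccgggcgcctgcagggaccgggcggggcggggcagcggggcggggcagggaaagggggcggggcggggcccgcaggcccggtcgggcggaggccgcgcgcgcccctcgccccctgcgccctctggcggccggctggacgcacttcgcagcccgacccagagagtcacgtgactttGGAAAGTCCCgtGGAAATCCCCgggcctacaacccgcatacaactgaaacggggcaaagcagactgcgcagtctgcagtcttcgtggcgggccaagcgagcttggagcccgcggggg

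The RefSeq table held promoters for 7 of the 10 genes, with 14 start sites between them. RELB, NFKBIE and IKBKB had no entry. The narrower consensus was GGGRNNYYCC, where R is A or G, Y is C or T and N is any base. It was found for 5 of the 7 genes (NFKB1, NFKB2, REL, NFKBIA and TNFAIP3), in 6 of the 14 windows. Of all 35116 promoters in the table, 11.3% held it. That share counts single windows, so it stands beside the 14 windows and not the 7 genes, which had up to 4 start sites. The 14 windows were 51.3% to 79% G or C, and this was not compared with all promoters. The windows of RELA and IKBKG did not contain the narrower consensus. The wider motif GGGNNNNNCC, where N is any base, searched on both strands and containing the narrower one, matched all 14 windows but also 58.7% of all promoters. A match is a description of the sequence and does not show that a factor was bound.

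The table as a whole sets the frame. Deposited levels ran from 1.56 to 19.15 on a log2 scale, a base inferred from this range, and the medians of the 4 arrays lay between 6.40 and 6.43. LDOC1, the hairpin's target, was at 8.37 and 8.66 on the H2BK120R arrays and at 8.0 and 8.33 on the vector arrays. The LDOC1 difference was 0.35 ± 0.23 (SE), with a limma adjusted p of 0.790. Both H2BK120R arrays were above both vector arrays, as for 18.6% of all probe sets. The part of this difference in the NF-kB values was not tested. Since all 4 arrays carry the hairpin, these levels are no measure of how far LDOC1 was depleted. Of the 7 epithelial markers, 5 had groups that did not overlap (71.4%, beside 36.5% of all probe sets), with CDH1 and KRT18 higher and KRT7, KRT19 and CLDN4 lower with H2BK120R. An unadjusted p under 0.05 was reached by 2 of the 7 (28.6%, beside 6.70% of all probe sets), CDH1 with a difference of 0.60 ± 0.15 (SE) and KRT7 with -0.32 ± 0.11, and neither passed limma's adjusted threshold (adjusted p = 0.650 and 0.722). The mean level of the 7 was 10.55 and 10.58 on the H2BK120R arrays, against 10.61 and 10.66 on the vector arrays. KRT8, a keratin of simple epithelia, lay between 17.11 and 17.20 on all 4 arrays, EPCAM between 5.16 and 5.76 and CLDN4 between 3.33 and 3.61. The part of these epithelial differences in the NF-kB values was not tested. The mean level of 5 leukocyte markers was 5.51 and 5.22 on the H2BK120R arrays, against 5.36 and 5.03 on the vector arrays. Levels of different probe sets do not share a scale, so the absence of a transcript was not judged from them. For arrays, their number limits the precision, and the labels do not say that replicates came from separate cultures, so the p-values measure a spread that may be technical.

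None of the 10 genes passed limma's test at an adjusted p of 0.05, and neither did any other probe set (0 of 21448, or 0%). Their median difference, H2BK120R minus vector, was -0.03 on the log2 scale, beside 0.00 over all probe sets, with 5 genes higher and 5 lower, or 4 higher and 6 lower after quantile normalization or with equal array medians, where IKBKB changed sign. At an unadjusted p under 0.05 there was 1 gene, RELA, of 10, beside 6.70% of all probe sets. The groups did not overlap for 5 genes of 10, beside 36.5% of all probe sets. Of these, 3 were higher with H2BK120R (RELA, REL and NFKBIE, beside 18.6% of all probe sets) and 2 were lower (NFKB2 and IKBKG, beside 17.9%). With counts this small, neither share stands clear of its background.

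**Figure D1:**
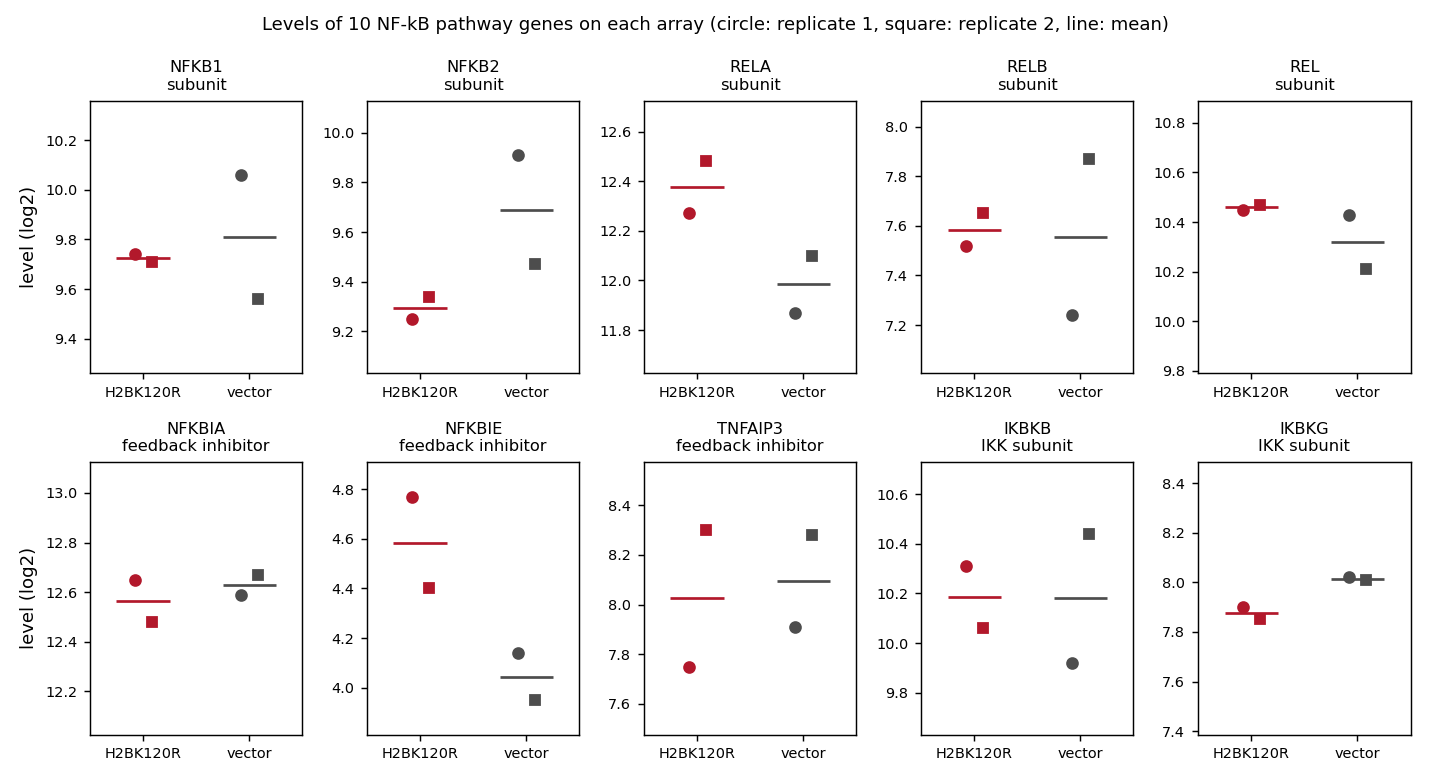
Level (log2, vertical axis) of each of the 10 genes on the 2 H2BK120R arrays (red, left) and the 2 vector arrays (grey, right). Circles are replicate 1, squares replicate 2 and lines group means, and each panel spans the same number of log2 units around its own gene. RELA, REL and NFKBIE have both red points above both grey ones, NFKB2 and IKBKG have them below, and the other 5 genes overlap.

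Among the subunits, RELA stood furthest from overlap. RELA, the main transactivating partner of the canonical dimer, was at 12.27 and 12.48 with H2BK120R, against 11.87 and 12.10 with vector. Both arrays with the mutant histone were above both vector arrays, and the gap between the group means was larger than the gap within either pair. The difference was 0.39 ± 0.15 (limma SE), or 1.31-fold with a 95% interval of 1.05 to 1.64. The unadjusted p was 0.0224, but the limma adjusted p over all probe sets was 0.739, so RELA did not pass. The interval depends on limma's variance trend, which ties a gene's variance to its level. Without the trend the RELA interval ran from -0.12 to 0.90 on the log2 scale and included 0, with an unadjusted limma p of 0.108. A difference as large as that of RELA was not rare on these arrays, since 19.3% of all probe sets had a larger one.

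NFKB2, whose product is processed to the DNA-binding subunit of the noncanonical dimer and is itself an inhibitor before processing, had the opposite sign. Its levels were 9.25 and 9.34 with H2BK120R, against 9.91 and 9.47 with vector. The vector arrays were 0.44 apart, more than the group means were. The difference was -0.40 ± 0.20 (SE), or 0.760-fold with a 95% interval of 0.559 to 1.04, and the limma adjusted p was 0.760. It was -0.18 without vector replicate 1 and -0.62 without vector replicate 2.

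NFKB1, the precursor of the DNA-binding subunit of the canonical dimer, was at 9.74 and 9.71 with H2BK120R, against 10.06 and 9.56 with vector. The 2 mutant arrays fell between the vector arrays. The difference of -0.09 ± 0.20 (SE) had a limma adjusted p of 0.947 and turned to 0.17 without vector replicate 1.

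RELB, the transactivating partner of NFKB2 in the noncanonical dimer, was at 7.52 and 7.65 with H2BK120R, against 7.24 and 7.87 with vector. Its vector arrays were 0.63 apart, the widest gap of any member in either group, and enclosed both mutant arrays. The difference was 0.03 ± 0.27 (SE), with a limma adjusted p of 0.987, and it was -0.29 without vector replicate 1 and 0.35 without vector replicate 2.

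REL, the subunit best known from lymphocytes, was at 10.45 and 10.47 with H2BK120R, against 10.43 and 10.21 with vector. The groups were apart only by the distance of 0.02 between H2BK120R replicate 1 and vector replicate 1. The difference was 0.14 ± 0.17 (SE), with a limma adjusted p of 0.889, and it was 0.03 without vector replicate 2. Over the 5 subunits, 3 differences were above 0 and 2 below, with a median of 0.03.

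The feedback inhibitors did not move as a group. NFKBIA, which retains RELA dimers in the cytoplasm and is resynthesised after each round of activation, was at 12.65 and 12.48 with H2BK120R, against 12.59 and 12.67 with vector. The 4 arrays lay within 0.19 of each other and the groups overlapped. The difference was -0.07 ± 0.13 (SE), or 0.956-fold with a 95% interval of 0.782 to 1.17, and the limma adjusted p was 0.940. It was 0.02 without H2BK120R replicate 2. That interval is the narrowest of the 10 genes. It does not show equality, and its bounds depend on limma's variance trend, which ties a gene's variance to its level. Without the trend the NFKBIA interval was wider, from -0.54 to 0.41 on the log2 scale.

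TNFAIP3, a ubiquitin-editing enzyme that shuts down signalling upstream of IKK, was at 7.75 and 8.30 with H2BK120R, against 7.91 and 8.28 with vector. In both groups replicate 2 was above replicate 1, by 0.55 with H2BK120R and by 0.37 with vector, and the groups overlapped. The difference was -0.07 ± 0.26 (SE), with a 95% interval of 0.642-fold to 1.41-fold and a limma adjusted p of 0.966. NFKBIA and TNFAIP3, whose promoters are printed above, thus both had differences close to 0.

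NFKBIE, an inhibitor that binds REL and RELA dimers, had the largest difference of the 10 genes. It was at 4.77 and 4.4 with H2BK120R, against 4.14 and 3.95 with vector. Both arrays with the mutant were above both vector arrays. The difference was 0.54 ± 0.31 (SE), or 1.45-fold with a 95% interval of 0.904 to 2.34, and the limma adjusted p was 0.768. Its level is below the median of the arrays, and it is the only member lost when the dimmer 50% of probe sets is left out. Over the 3 inhibitors, 1 difference was above 0 and 2 were below, and the median was -0.07.

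Neither IKK gene passed. IKBKB, the kinase that phosphorylates the inhibitors, was at 10.31 and 10.06 with H2BK120R, against 9.92 and 10.44 with vector. The vector arrays enclosed both mutant arrays, and the difference was 0.005 ± 0.20 (SE), with a limma adjusted p of 0.997. IKBKG, the scaffold that binds ubiquitin chains and docks the kinases, was at 7.90 and 7.85 with H2BK120R, against 8.02 and 8.01 with vector. Both mutant arrays were below both vector arrays, which lay 0.01 apart. The difference was -0.14 ± 0.22 (SE), with a limma adjusted p of 0.919. The error exceeds the difference although the arrays of each pair lie close, because limma moves each gene's variance towards that of other probe sets of its level. IKBKG has a near-identical partial copy in the genome, so its probe set may also read that copy.

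**Figure D2:**
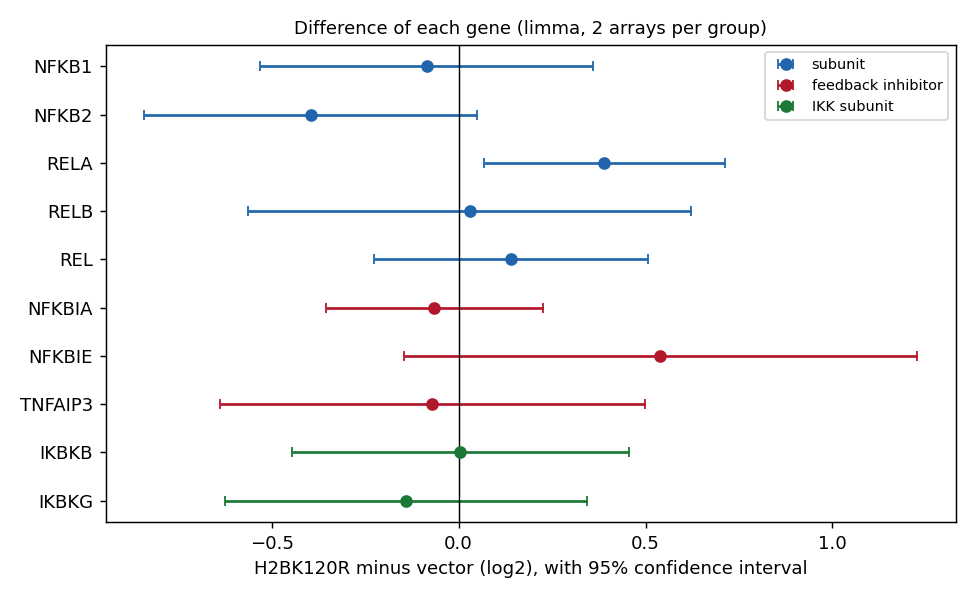
Difference H2BK120R minus vector (log2, horizontal axis) for each gene, with limma's 95% confidence interval as the bar and colours for the 3 roles. RELA alone has an interval above 0 (0.07 to 0.71), without adjustment for the number of probe sets tested, and NFKBIE has the widest interval (-0.15 to 1.23). Without limma's variance trend the RELA interval includes 0 (-0.12 to 0.90).

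The spread between arrays of one group limited what could be seen. For 6 of the 10 genes the 2 vector arrays were further apart than the 2 H2BK120R arrays, beside 55.9% of all probe sets. The median gap of the 10 genes was 0.15 within the H2BK120R pair and 0.30 within the vector pair, and over all probe sets it was 0.21 within the H2BK120R pair and 0.26 within the vector pair. For 3 genes (RELA, NFKBIE and IKBKG) the difference between the groups was larger than both gaps, as it was for 24.3% of all probe sets. The 95% interval reached a median of 0.45 to either side of the difference over the 10 genes and 0.62 over all probe sets. The interval lay within 1 log2 unit of 0 on either side for 9 of the 10 genes, with NFKBIE the exception, and within 0.5 for 2 of them, NFKBIA and IKBKB. Without limma's variance trend, the intervals of NFKBIA and IKBKB both reached beyond 0.5.

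Leaving out each array in turn changed the sign of 5 of the 10 differences. NFKB1, RELB, NFKBIA, TNFAIP3 and IKBKB each took both signs, while NFKB2 and IKBKG stayed below 0 and RELA, REL and NFKBIE stayed above 0. The 5 genes that kept their sign are those whose groups did not overlap, and 36.5% of all probe sets had no overlap. Overlapping groups can also keep their sign, so 36.5% is not the share of all probe sets that kept it. That share was not counted. Without overlap, leaving out 1 array cannot change the sign, so keeping it is not a separate sign of stability. The difference of RELA ranged from 0.28 (without vector replicate 1) to 0.51 (without vector replicate 2), and that of NFKBIE from 0.36 to 0.73 (without H2BK120R replicates 1 and 2 in that order). RELA had an unadjusted p of 0.199 without H2BK120R replicate 2 and of 0.119 without vector replicate 1. TNFAIP3 ranged from -0.35 without H2BK120R replicate 2 to 0.21 without H2BK120R replicate 1, the widest swing among the 3 inhibitors.

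**Figure D3:**
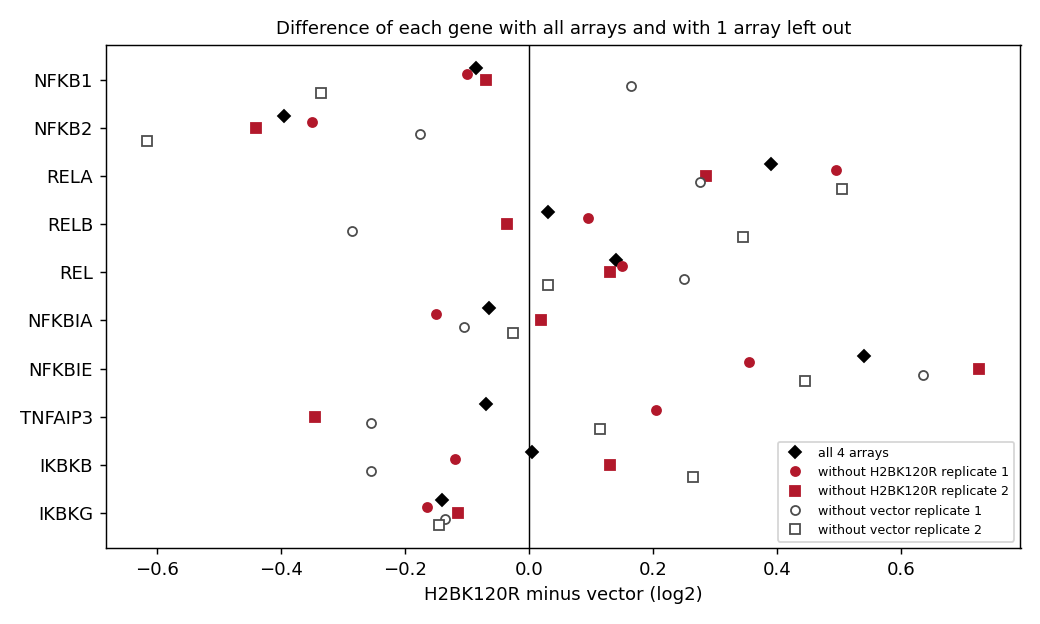
Difference H2BK120R minus vector (log2, horizontal axis) of each gene with all 4 arrays (black diamond) and with 1 array left out (red circle and square, H2BK120R replicates 1 and 2; open circle and square, vector replicates 1 and 2). NFKB2 and IKBKG stay left of 0, RELA, REL and NFKBIE stay right of it, and the other 5 genes fall on both sides. The genes that stay on 1 side have groups that do not overlap, which fixes their sign.

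A scaling factor common to a whole array cancels in ratios within that array, so 5 pairs of members that act together were compared in this way. A normalization that depends on the level does not cancel. RELA relative to its inhibitor NFKBIA was higher with H2BK120R by 0.46 on the log2 scale, with both mutant arrays (0.27 and 0.65 above the vector mean) outside the vector arrays (-0.08 and 0.08). REL relative to NFKBIE differed by -0.40, with the mutant arrays at -0.60 and -0.21 from the vector mean and the vector arrays at 0.02 and -0.02. Both had an exact two-sided permutation p of 0.333, the smallest that 2 arrays against 2 can give, so no such comparison could pass 0.05 here. For NFKB1 relative to RELA (-0.48, exact permutation p = 0.667), NFKB2 relative to RELB (-0.43, p = 1) and IKBKB relative to IKBKG (0.15, p = 1), the groups overlapped.

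Around the members, 4 lists of pathway genes gave 74 further measured genes, none of which passed limma's adjusted threshold. Of the 74, 5 had an unadjusted p under 0.05, beside 6.70% of all probe sets. Of 14 listed receptors 13 were measured, 9 higher and 4 lower, with a median difference of 0.06. TLR3, the endosomal receptor for double-stranded RNA, was at 6.11 and 6.83 with H2BK120R, against 5.79 and 5.45 with vector, and its difference of 0.85 ± 0.33 (SE) had a limma adjusted p of 0.745. TNFRSF11A, the receptor for RANK ligand, differed by 0.57 ± 0.31. The Toll-like receptor genes TLR1 and TLR6 differed by 0.45 ± 0.32 and 0.25 ± 0.19. TLR3 was the 1 receptor at an unadjusted p under 0.05, or 7.69% of the list, beside 6.70% of all probe sets.

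The adaptors and kinases between receptor and IKK had a median of 0.09, with 10 of 18 measured genes higher, 7 lower and 1 equal. The 4 with the smallest p included both accessory subunits of the linear ubiquitin ligase, with opposite signs. RBCK1 was at 10.24 and 10.75 with H2BK120R, against 9.68 and 10.27 with vector, a difference of 0.52 ± 0.23 (SE) between groups that overlapped. SHARPIN was at 7.89 and 8.17 with H2BK120R, against 8.48 and 8.49 with vector, a difference of -0.46 ± 0.22. MAP3K14, the kinase of the noncanonical branch, differed by -0.38 ± 0.18. TRAF3, which keeps that kinase low in resting cells, differed by -0.23 ± 0.13. Their limma adjusted p-values were between 0.745 and 0.767. RBCK1 was the 1 gene of the list at an unadjusted p under 0.05 (5.56%, beside 6.70% of all probe sets). The groups did not overlap for 7 of the 18 (38.9%, beside 36.5%).

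The other inhibitors of the pathway had a median of 0.04, with 9 genes higher and 6 lower of 15 measured. OTUD7B, a deubiquitylase that restrains the noncanonical branch, had the smallest unadjusted p of all the genes named here from the 4 lists. It was at 8.16 and 8.13 with H2BK120R, against 8.74 and 8.98 with vector, with both mutant arrays below both vector arrays. The difference was -0.72 ± 0.21 (SE), with a limma adjusted p of 0.678. NFKBIB, a further cytoplasmic inhibitor, differed by -0.45 ± 0.34, the ligase gene ITCH by 0.22 ± 0.17 and the TNFAIP3 partner TNIP2 by 0.25 ± 0.22. OTUD7B was the 1 gene of the list at an unadjusted p under 0.05 (6.67%, beside 6.70% of all probe sets). The groups did not overlap for 3 of the 15 (20%, beside 36.5%).

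The known target genes had a median of -0.07, and 18 of the 28 measured were below 0 and 10 above. Of the 32 listed, TNF, CSF2, BIRC3 and SOD2 had no named probe set. The lean below 0 depended on dim probe sets. A filter that dropped the lower 25% of probe sets by level kept 19 targets, 9 higher and 10 lower, with a median of -0.01. Dropping the lower 50% kept 9 targets, 5 higher and 4 lower, and the median turned to 0.05. BCL2A1, an antiapoptotic BCL2 relative, was at 4.49 and 4.27 with H2BK120R, against 5.31 and 5.05 with vector, and differed by -0.80 ± 0.31 (SE). CFLAR, which blocks caspase activation at death receptors, was at 12.90 and 12.54 with H2BK120R, against 13.26 and 12.95 with vector, and differed by -0.39 ± 0.16. NOS2, the inducible nitric oxide synthase, differed by -0.66 ± 0.32 and the chemokine gene CXCL3 by 0.35 ± 0.26. The levels of BCL2A1 and NOS2 are below the medians of the arrays. Over the whole list the groups did not overlap for 6 of the 28 targets (21.4%, beside 36.5% of all probe sets), 3 higher and 3 lower with H2BK120R. The 3 lower ones were BCL2A1, CFLAR and NOS2, and CXCL3 was among the higher ones. The limma adjusted p-values of the 4 were between 0.745 and 0.817. The 2 targets at an unadjusted p under 0.05, BCL2A1 and CFLAR, were 7.14% of the list, beside 6.70% of all probe sets, and the list's median turned to 0.04 without H2BK120R replicate 1.

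**Figure D4:**
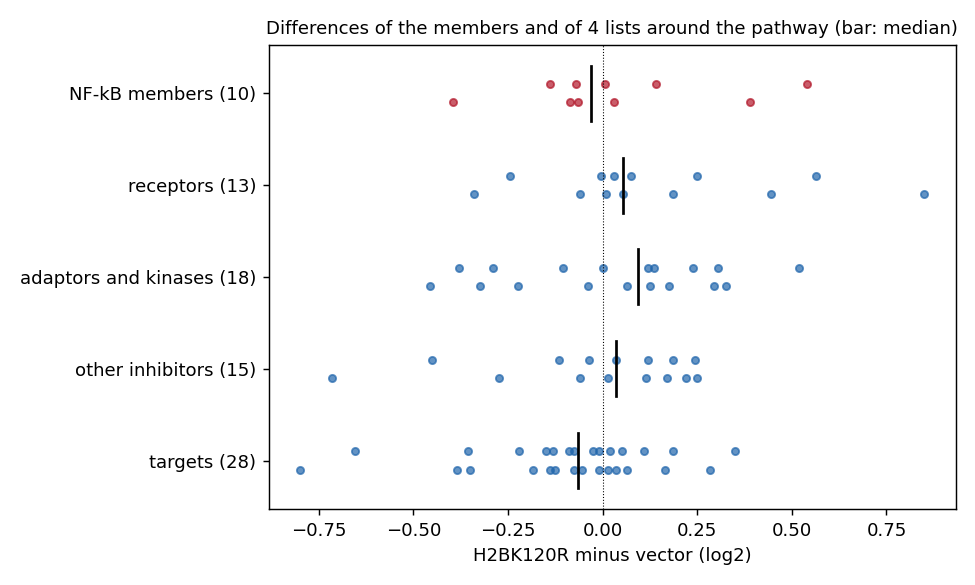
Difference H2BK120R minus vector (log2, horizontal axis) of every measured gene among the members (red) and in the 4 lists around them (blue), with the number of genes in brackets and a bar at the median. All 5 medians lie between -0.07 and 0.09, and genes of each list fall on both sides of 0.

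By pattern over the 4 arrays, the genes most like NFKBIA were TEX28, NINJ2 and TNFRSF12A, the receptor for the cytokine TWEAK. After centring each gene on its own mean, the largest distance from NFKBIA on any array was 0.01 for TEX28 and 0.0125 for NINJ2 and TNFRSF12A. TNFRSF12A was at 13.34 and 13.16 with H2BK120R, against 13.28 and 13.34 with vector. TEX28, the closest, was at 2.74 and 2.55 with H2BK120R, against 2.67 and 2.75 with vector. NINJ2 was at 6.17 and 5.99, against 6.10 and 6.20. The levels of TEX28 and NINJ2 are below the medians of the arrays. NFKBIA itself ranged over only 0.19 with overlapping groups, so likeness to it follows small differences between arrays and shows no shared regulation. Of the 17687 genes with a named probe set, 93 lay within 0.05 of NFKBIA on every array after this centring.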

How the data were processed

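The log2 levels were normalized between arrays by the authors and deposited as 1 value per probe set and array. The base of 2 and the normalization are inferred from the range and the near-equal medians. Per the submitters' processing notes MAS5 was used, with no version; the sources used here do not give the background correction, probe summary or detection calls. Per the labels' protocols, RNA was taken from cultures above 90% confluency and labelled with biotin as single-stranded cDNA. Of 21448 probe sets, 17709 had 1 gene symbol in GEO's platform annotation, 0 had several and 3739 were unnamed here. The brightest probe set stood for a gene. No coordinates of the probe sets are given.

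The 2 groups were fitted with limma 3.58.1 (R 4.3.3), using eBayes with its trend option and two-sided tests on the deposited values. P-values of the whole table were adjusted together by Benjamini-Hochberg. The fit was also run on data simulated from limma's own variance model, which cannot check that model on these arrays. Groups and replicate numbers came from the titles. The members and lists were chosen with earlier results of these data known. Besides the members and LDOC1, the 4 genes with the smallest p of each list and the 3 most like NFKBIA were named. Of 85 listed pathway genes, 11 had no named probe set and were not analysed here. Python 3.11.15 with matplotlib 3.10.9 drew the figures. The alternatives were other normalizations, filters on dim probe sets, moderation settings, the replicate block and leaving out each array. A pseudocount does not apply to log2 values.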

Additional observations from a re-analysis of the deposited data

How the results depend on the processing

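Under each of the 12 alternatives, 0 probe sets and 0 of the NF-kB genes tested passed an adjusted p of 0.05 in limma. All 10 genes were tested, except with the dimmest 50% left out, where NFKBIE dropped out and 9 were tested. RELA was the 1 NF-kB gene at an unadjusted p under 0.05. That number was 0 without the variance trend, and between 0 and 2 with 1 array left out (0 without H2BK120R replicate 2 or vector replicate 1, 2 without vector replicate 2). Over all probe sets that count, added after the data were seen, was 1437, 903 of fewer tested with the dimmest 50% left out, and between 495 and 2427 with 1 array left out. Where 1 array stands for a group, its spread is taken from the other group. The sign of IKBKB turned with quantile normalization (-0.035) and equal array medians (-0.01). With 1 array left out, differences ranged from -0.26 to 0.27 for IKBKB, from -0.34 to 0.17 for NFKB1, from -0.29 to 0.35 for RELB, from -0.15 to 0.02 for NFKBIA and from -0.35 to 0.21 for TNFAIP3. The list medians then ranged from 0.04 to 0.10 for receptors, from 0.0075 to 0.08 for adaptors and kinases, from 0 to 0.07 for other inhibitors and from -0.14 to 0.04 for targets. The causes of these changes were not tested. With the replicate block the RELA difference stayed at 0.39 with a limma adjusted p of 0.528. The count of NF-kB genes at an unadjusted p under 0.05 was then 1 of 10, beside 1846 of 21448 probe sets (1437 in the main fit). The 903 probe sets with the dimmest 50% left out were of 10724 tested. The replicate numbers are not said to mark shared cultures. Across probe sets, the deviations of same-numbered arrays from their group means correlated at 0.14. With 2 arrays per group, replicate 2 mirrors replicate 1 in this measure, so it is too little to show pairing.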
